A study of Mus musculus with 51 samples.

Results

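The proteasome genes of mouse gastrocnemius muscle were taken as all genes present in both deposited count tables whose symbol begins with Psma, Psmb, Psmc, Psmd or Psme and a number, pseudogene symbols left out. This rule gave 45 of 48294 symbols and uses no measured value. By name, 43 of them encode subunits, assembly chaperones or activators of the proteasome. The other two, Psmc3ip (a meiotic recombination cofactor named after a proteasome gene) and Psme2b (a copy of Psme2 whose reads may not be separable from it), summed to 548 and 292 counts over the 51 libraries. They match the rule and are counted among the members tested, but they were called in no comparison and enter no sum of subunits. Psma8 (21 counts in all) and Psmb11 (4 counts in all), the testis and thymus forms of an α and a β subunit, were too low to be tested.

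The proteasome is the protease that breaks down proteins tagged with ubiquitin. Its 20S core is a barrel of α rings, which gate the entry, around β rings, of which Psmb6, Psmb7 and Psmb5 carry the standard catalytic sites and Psmb9, Psmb10 and Psmb8 the inducible ones that replace them in immune cells and under interferon. The 19S cap binds ubiquitin, unfolds the substrate with a ring of ATPases (Psmc genes) and removes ubiquitin in its lid (most Psmd genes), and the Psme genes encode caps that act without ubiquitin. In skeletal muscle this system is known for its part in protein turnover and atrophy. VHL is the substrate receptor of the ubiquitin ligase that sends hypoxia-inducible factors to the proteasome, and BMAL1 (gene Arntl in the files) is the core transcription factor of the circadian clock.

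The study's question was whether BMAL1 works with hypoxia-inducible factors to set circadian glucose use in obese muscle. Each library came from the whole gastrocnemius of 1 animal, and all knockouts are skeletal muscle-specific. The Cre driver, deleted exons, age and time of harvest were not given in the sources used here. Batch 1 (19 libraries) held Bmal1fx/fx controls and Bmal1KO animals on high-fat diet (7 and 5 animals) and on regular chow (4 and 3 animals). Batch 2 (32 libraries), all on high-fat diet, held Bmal1fx/fx controls and Bmal1KO (8 and 4), Vhlfx/fx controls and VhlKO (6 and 4), and Bmal1fx/fx;Vhlfx/fx controls and Bmal1KO;VhlKO (6 and 4), the last called the double knockout here. Every control is floxed, so the effect of the floxed alleles themselves is shared by both sides of each comparison. The titles name no Cre for the controls, so an effect of Cre itself cannot be told apart from that of the deletion. Contrasts between effects in batch 2 set knockouts with separate floxed controls against each other.

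Depth ran from 6.95 to 14.7 M counts per library, and mitochondrial transcripts held between 19.7% (double knockout) and 37.7% (high-fat controls of batch 1) of counts as group means. Values are CPM, counts relative to library sizes scaled by the trimmed mean of M-values (TMM), and a 3′ tag library gives about 1 tag per transcript, so they are not divided by length. Arntl was called lower in the knockout of batch 1 on high-fat diet (7.41 ± 1.83 CPM against 15.0 ± 2.65, SD, n = 5 and 7) and in the double knockout (11.6 ± 2.44 against 16.0 ± 1.31, n = 4 and 6). In the chow Bmal1KO it stood at 7.79 ± 2.84 CPM against 14.4 ± 5.40 (n = 3 and 4; log2 fold change -0.91, edgeR adjusted p = 0.082), not called. In the Bmal1KO of batch 2 it stood at 9.27 ± 1.16 CPM against 10.9 ± 1.59 (n = 4 and 8; log2 fold change -0.24, edgeR adjusted p = 0.24), also not called, so both sets are named by their labels; 3′ tags outside the deleted exons cannot check a deletion. Vhl was lower in VhlKO (1.69 ± 0.79 against 3.09 ± 1.30 CPM, n = 4 and 6) and in the double knockout (2.61 ± 0.93 against 4.40 ± 0.93). A few libraries stood apart in immune transcripts: the 6 T and NK cell markers summed to 29.8 CPM in chow control animal 2 and 40.0 CPM in chow Bmal1KO animal 1, against at most 0.24 in the other 5 chow libraries, and to 6.77 CPM in VhlKO animal 2, against at most 0.99 in the other 3 VhlKO libraries. In these bulk samples, fewer cells of a type and less RNA per cell cannot be told apart.

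Promoter windows (RefSeq, GRCm38.p6, 250 bases before to 50 after a gene's start) were found for 38 of the 45 genes. The stretches below show, 5′ to 3′ on the gene's strand, the upstream sequence of the subunit that fell in Bmal1KO muscle (Psmd8), of a pair that rose in every or most knockouts (Psmb3 and Psmd4), and of the standard catalytic subunits Psmb6 and Psmb5. All lie outside annotated exons. Capitals mark CCAAT (read as ATTGG on the other strand) in Psmb3 and Psmd4, and TGACNNNGC, the core of the antioxidant response element through which NFE2-type factors drive proteasome genes, in Psmb6 and Psmb5. Psmb7, the other standard catalytic subunit, is not shown, and TGACNNNGC was not found for it.
Psmd8, chr7:29180702-29180901 (minus strand, none of the searched motifs): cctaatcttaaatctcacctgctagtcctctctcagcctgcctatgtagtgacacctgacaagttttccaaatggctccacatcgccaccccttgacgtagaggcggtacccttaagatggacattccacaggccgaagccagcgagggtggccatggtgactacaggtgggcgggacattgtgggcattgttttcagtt
Psmb3, chr11:97703199-97703398 (plus strand): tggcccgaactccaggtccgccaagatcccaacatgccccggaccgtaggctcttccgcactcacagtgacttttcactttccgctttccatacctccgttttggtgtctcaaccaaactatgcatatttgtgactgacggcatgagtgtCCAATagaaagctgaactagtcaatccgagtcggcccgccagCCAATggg
Psmd4, chr3:95042615-95042814 (minus strand): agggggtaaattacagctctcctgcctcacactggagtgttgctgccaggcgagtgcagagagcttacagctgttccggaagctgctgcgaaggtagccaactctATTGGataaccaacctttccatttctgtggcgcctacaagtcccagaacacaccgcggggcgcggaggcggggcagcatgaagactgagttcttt
Psmb6, chr11:70525323-70525356 (plus strand): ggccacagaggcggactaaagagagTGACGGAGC
Psmb5, chr14:54618023-54618067 (minus strand): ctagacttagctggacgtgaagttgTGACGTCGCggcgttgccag
Over whole windows and both strands, TGACNNNGC was in 6 of the 38 genes (15.8%, against 14.0% of all 27025 genes with a window). The E-box CACGTG, bound by clock factors, was in 4 (10.5% against 8.09%), ACGTG, the core of the hypoxia response element and contained in CACGTG, in 8 (21.1% against 21.8%), and CCAAT in 15 (39.5% against 41.1%). These shares lie near those of all genes, and a match of letters is a description, not a site. The Psmb5 stretch above also holds an ACGTG (offset -58 from the start of the gene), which is left in lower case.

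Proteasome transcripts were moderately abundant in muscle. In the Bmal1fx/fx controls of batch 2 the highest means were those of Psmd8 (283 CPM, range 257 to 319), Psme4 (262 CPM, 241 to 281) and Psmc1 (259 CPM, 208 to 288; n = 8), whose ranges overlap. The inducible catalytic subunits were low there: Psmb10 averaged 10.1, Psmb8 7.19 and Psmb9 3.48 CPM, against 30.5 CPM for Psmb5. The assembly chaperones Psmd5, Psmd9 and Psmd10 were also low (13.6, 9.68 and 7.45 CPM). Summed over all subunits, the level was 3609 ± 264 CPM in the high-fat controls of batch 1 and 4172 ± 185 CPM in the Bmal1fx/fx controls of batch 2 (SD, n = 7 and 8); the batches were scaled separately, so levels are not compared across them.

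**Figure D1:**
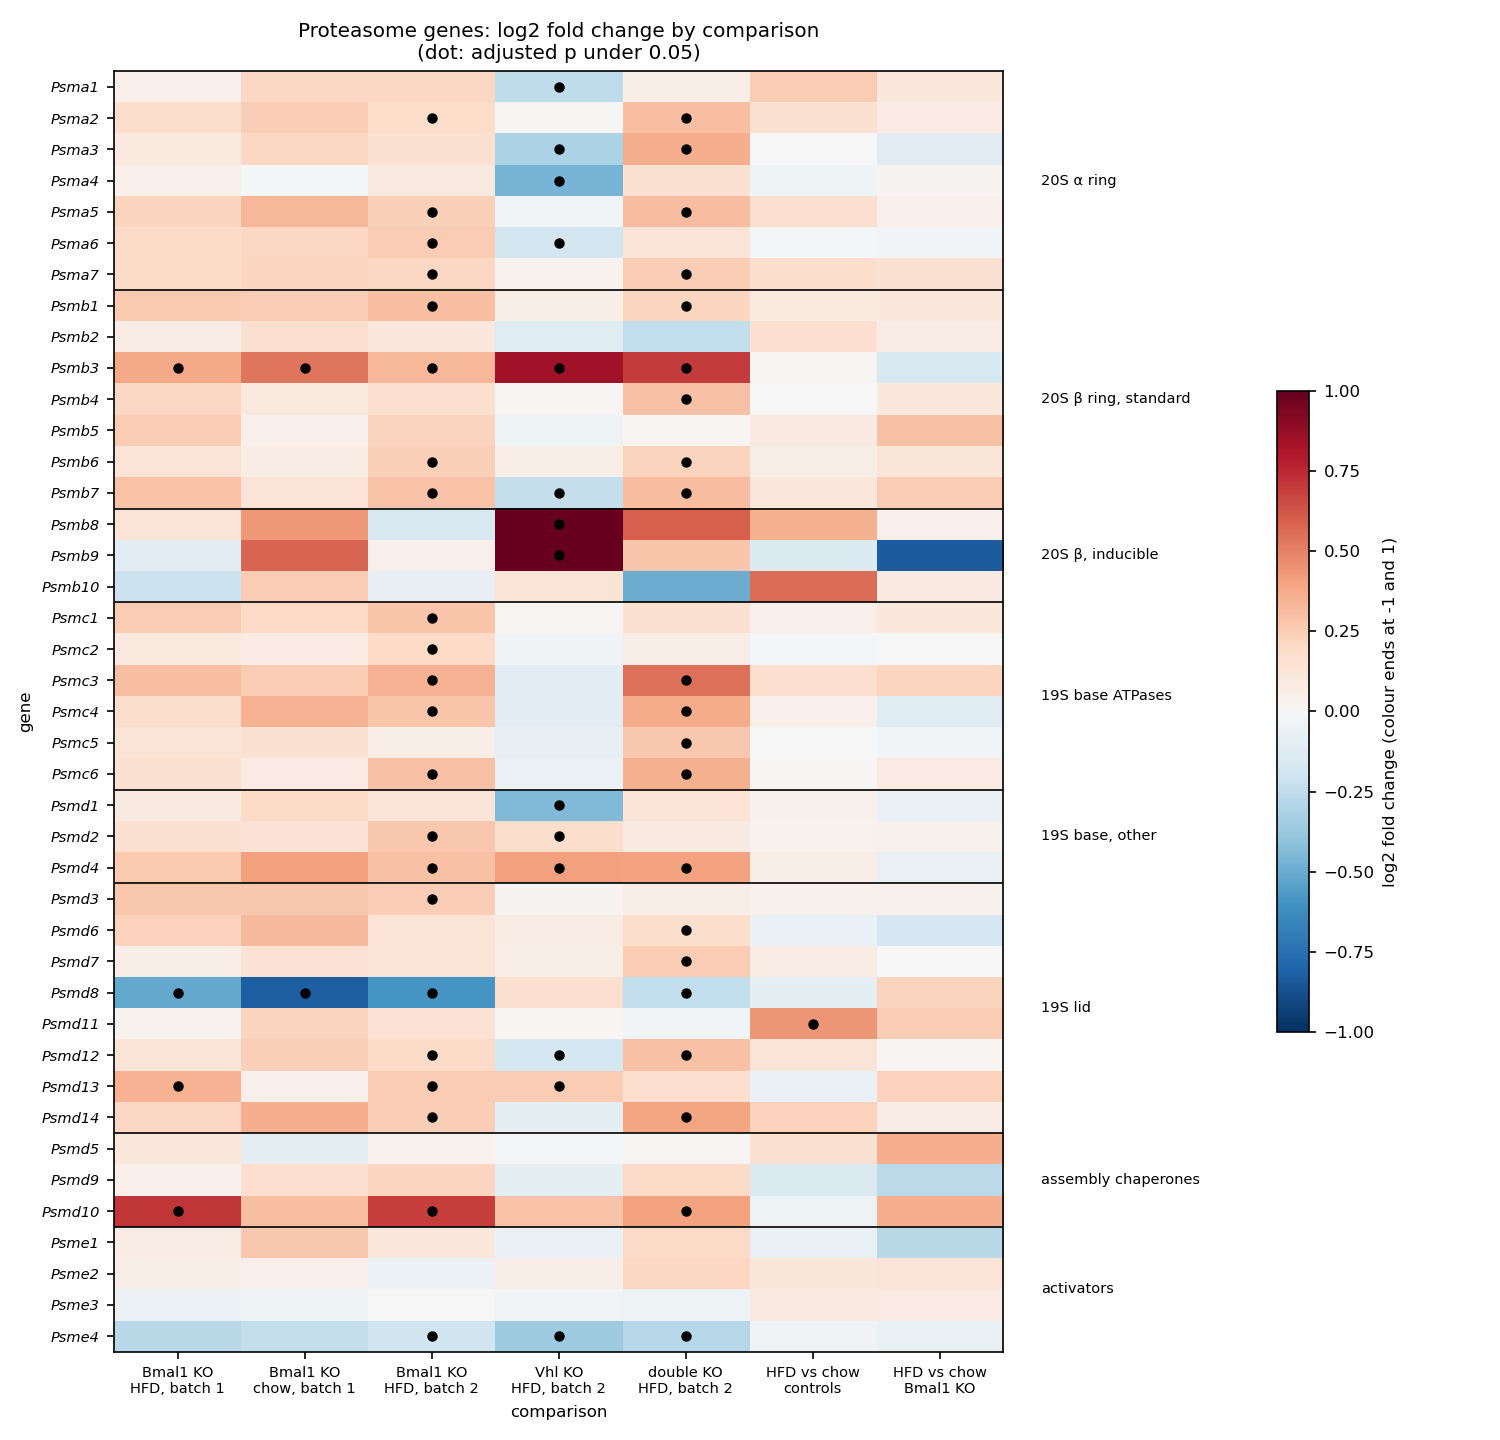
Log2 fold changes of the 41 proteasome genes tested in both batches (rows, grouped by place in the complex) in 7 comparisons (columns), coloured from -1 (blue) to 1 (red), with a dot where the adjusted p was under 0.05. Red prevails in the Bmal1KO and double knockout columns, the VhlKO column holds both colours, and the diet columns hold 1 dot, at Psmd11.

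In Bmal1KO muscle Psmd8 fell and Psmb3 rose in all 3 comparisons, and in batch 2 alone were most core and cap subunits called higher (19 of 31, against 2 of 31 on high-fat diet and 1 of 31 on chow in batch 1). On high-fat diet in batch 2, 20 of 43 tested members rose and 2 fell (background: 6.94% of all 13093 genes rose and 6.96% fell, 13.9% in all), with a median log2 fold change of 0.20 over the members and near 0 over all genes. In batch 1 the same comparison called 3 of 42 members higher and 1 lower (background: 3.82% and 5.18% of 12762 genes, 9.00% in all), and 37 of the 42 had a positive log2 fold change (median 0.14). On chow 1 rose and 1 fell (background: 1.55% and 2.29%, 3.84% in all), with 36 of 42 positive (median 0.20). In both comparisons of batch 1 the share of members called, 9.52% and 4.76%, lies near the background. The Bmal1KO effect on high-fat diet was not called different between the batches for any member (edgeR called 0 of all genes, DESeq2 called 0 members, and 0 members were at an unadjusted p under 0.05); the smallest p were those of Psmc6 (0.14 ± 0.10) and Psma1 (0.15 ± 0.11). Groups did not overlap for 12 members in batch 2 (10 above and 2 below; over all genes 4.90% above and 5.06% below), for 2 in batch 1 on high-fat diet, both above (2.51% above and 3.57% below), and for 13 on chow (12 above and 1 below; 5.86% above and 5.90% below).

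Psmd8, a lid subunit (chromosome 7, 29174188 to 29180701, minus strand), fell in each of the Bmal1KO comparisons. On chow the controls held 300, 202, 237 and 256 CPM and the knockouts 130, 148 and 143 CPM. In batch 2 the 8 controls lay between 257 and 319 CPM (median 278) and the knockouts at 184, 185, 200 and 183 CPM. Neither pair of groups overlapped. On high-fat diet in batch 1 the controls ran from 171 to 297 CPM (median 221) and the knockouts stood at 151, 183, 136, 165 and 182 CPM, so that the lowest control lay within the knockouts. The log2 fold changes were -0.83 ± 0.16 on chow, -0.59 ± 0.07 in batch 2 and -0.51 ± 0.12 in batch 1 (SE; edgeR adjusted p = 0.0010, 1.9e-08 and 0.0041). These calls held under every alternative setting tried in each of the comparisons.

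Psmb3, a β-ring subunit without a catalytic site (chromosome 11, 97703399 to 97713500, plus strand), moved the other way. Its chow controls held 103, 85.9, 91.5 and 97.9 CPM and the chow knockouts 147, 123 and 142 CPM. In batch 1 on high-fat diet the controls ran from 77.7 to 108 CPM (median 96.1) and the knockouts read 135, 113, 120, 111 and 140 CPM. In batch 2 the controls ran from 66.1 to 82.3 CPM (median 76.4) and the knockouts read 89.5, 98.2, 101 and 95.7 CPM. Every knockout lay above every control of its comparison. The log2 fold changes were 0.54 ± 0.12, 0.38 ± 0.09 and 0.33 ± 0.07 (adjusted p = 0.0033, 0.0037 and 0.00070). Without chow control 2 and chow Bmal1KO 1, the libraries rich in T cell transcripts, the chow log2 fold change was 0.44 and did not pass (adjusted p = 0.066), with 2 fewer libraries.

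Psmd10, the base assembly chaperone also known as gankyrin (chromosome X, 140948429 to 140956728, minus strand), rose on high-fat diet. In batch 1 the controls lay between 5.43 and 8.19 CPM (median 6.33) and the knockouts at 11.2, 9.92, 12.4, 9.42 and 10.9 CPM. In batch 2 the controls lay between 5.98 and 8.68 CPM (median 7.38) and the knockouts at 11.1, 11.6, 13.5 and 11.9 CPM. The fold was near the same in both batches, at log2 0.71 ± 0.16 and 0.69 ± 0.11 (adjusted p = 0.0019 and 3.0e-06). On chow the knockouts spread over 5.69, 8.16 and 11.1 CPM around controls of 5.29 to 8.25 CPM, and the difference did not pass the test (0.30 ± 0.21).

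**Figure D2:**
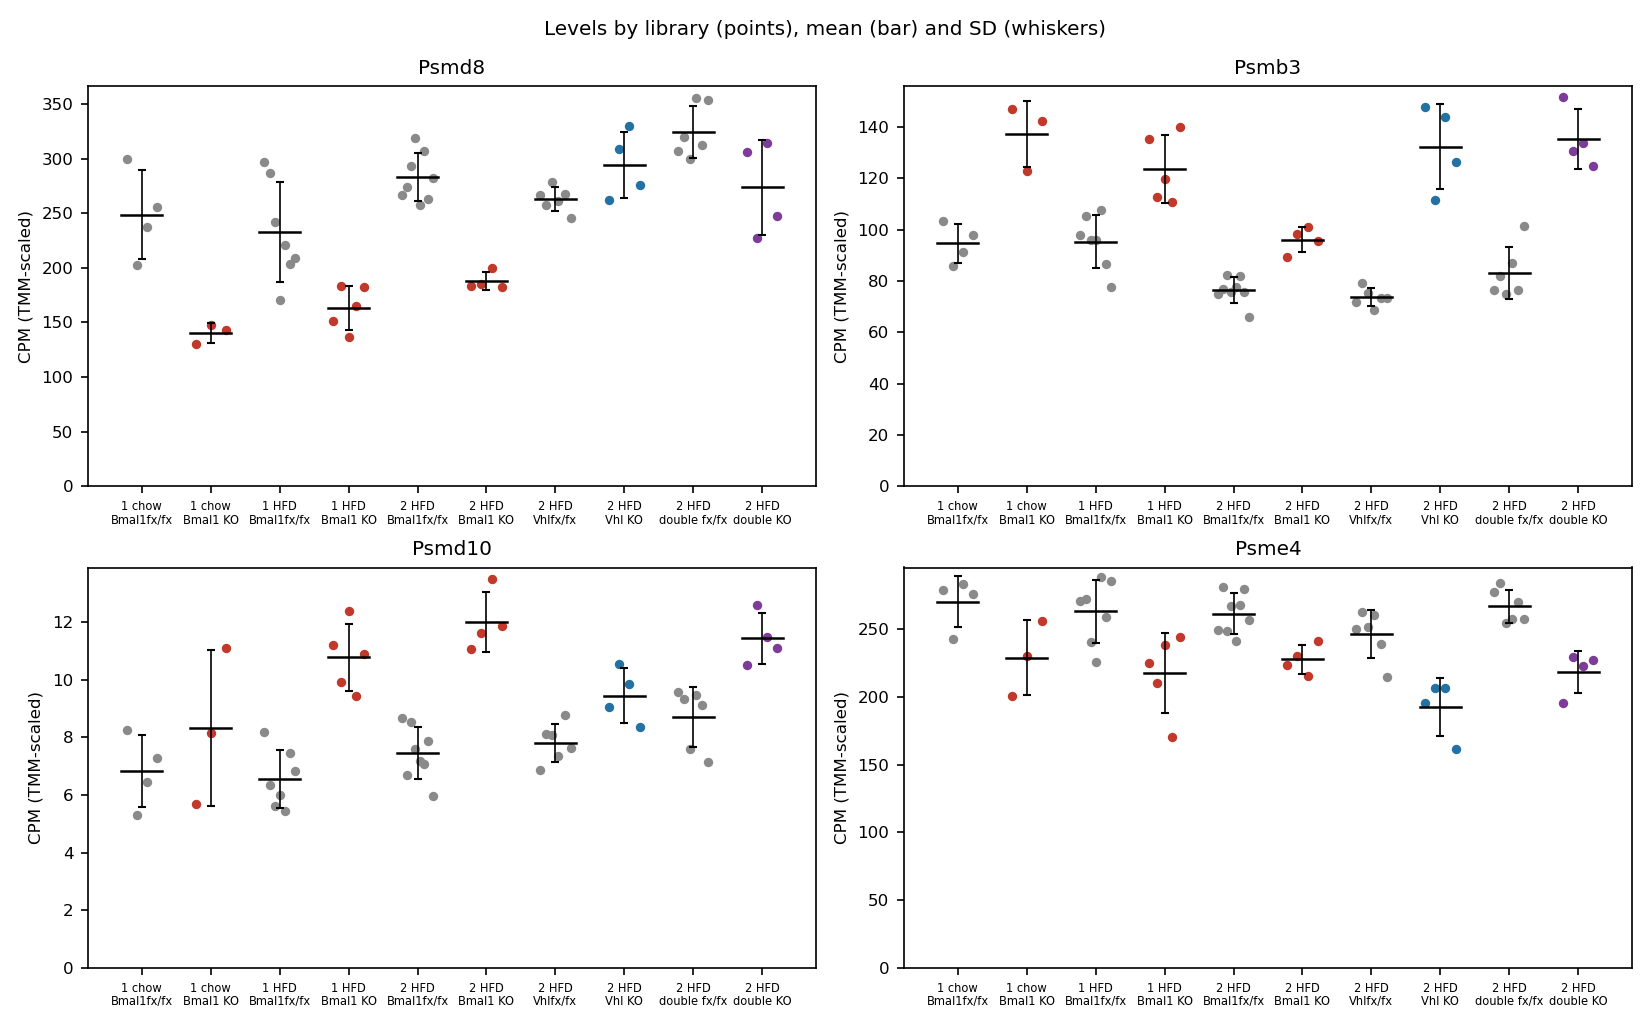
CPM of Psmd8, Psmb3, Psmd10 and Psme4 in every library (points), with the mean (bar) and SD (whiskers) of each of the 10 groups. Psmd8 lies lower in the Bmal1KO groups and the double knockout, and Psmb3 higher in every knockout group. Psmd10 lies higher in the Bmal1KO groups on high-fat diet and in the double knockout, and Psme4 lower in the knockout groups of batch 2.

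In the 20S core, the Bmal1KO of batch 2 had 4 of 7 tested α subunits higher (Psma2, Psma5, Psma6 and Psma7) and 4 of 7 standard β subunits higher (Psmb1, Psmb3, Psmb6 and Psmb7). Psmb1, a β subunit without a catalytic site, held 95.8 to 116 CPM (median 111) in the controls and 122, 139, 140 and 134 CPM in the knockouts, without overlap, a log2 fold change of 0.30 ± 0.06 (adjusted p = 0.00015). Among the catalytic subunits, Psmb6 rose by 0.24 ± 0.06 (adjusted p = 0.0028) and Psmb7 by 0.29 ± 0.08 (adjusted p = 0.0074). Psmb5 read 26.4 to 37.1 CPM (median 30.0) in the controls and 33.3, 36.5, 36.4 and 36.1 CPM in the knockouts, and its log2 fold change of 0.22 (95% interval 0.05 to 0.40) did not pass. The last 405 exonic bases of Psmb7 overlap Nek6 on the opposite strand, with a strand setting of the counting that was not given in the sources used here.

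In the 19S base 5 of 6 ATPases rose in the Bmal1KO of batch 2, all but Psmc5, as did the ubiquitin receptor Psmd4 and the scaffold Psmd2. Psmc3 held 196 to 271 CPM (median 243) in the controls and 296, 319, 320 and 296 CPM in the knockouts, without overlap, a log2 fold change of 0.35 ± 0.06 (adjusted p = 3.4e-05). Its last exonic bases overlap Slc39a13 on the opposite strand over 215 bases. Psmd4 held 178 to 238 CPM (median 208) in the controls and 219, 269, 267 and 261 CPM in the knockouts, with the lowest knockout inside the control range (0.30 ± 0.07, adjusted p = 0.0017). Summed over the 6 ATPases, the level was 971 ± 51.7 CPM in the knockouts and 808 ± 58.6 CPM in the controls (SD, n = 4 and 8).

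Psmc4, an ATPase shown with Psmd14 after their values were seen, rose in batch 2 without overlap. Its controls lay between 37.8 and 46.4 CPM (median 41.4) and its knockouts at 48.5 to 51.6 CPM, a log2 fold change of 0.28 ± 0.08 (adjusted p = 0.0077). In batch 1 on high-fat diet Psmc4 held 32.2 to 35.8 CPM (median 33.2) in the controls and 35.5 to 40.5 CPM (median 38.1) in the knockouts, and on chow 26.6 to 39.4 CPM against 33.7 to 46.2 CPM. These differences (0.18 ± 0.09 and 0.35 ± 0.12) did not pass.

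In the lid, Psmd3, Psmd12, Psmd13 and Psmd14 (the deubiquitinating subunit) rose in batch 2 beside the fall of Psmd8. The summed lid level, of which Psmd8 holds a large share, was 1057 ± 64.5 CPM against 1049.6 ± 34.9 CPM. Psmd14 held 52.0 to 59.2 CPM (median 56.2) in the controls and 57.4 to 70.5 CPM (median 69.3) in the knockouts, where the lowest, 57.4 CPM, lay inside the control range (0.25 ± 0.07, adjusted p = 0.015). On chow its controls lay between 33.8 and 39.8 CPM and its knockouts between 45.3 and 49.7 CPM, apart but not called (0.36 ± 0.12, adjusted p = 0.079). Psmd13 also rose in batch 1 on high-fat diet, where controls read 59.2 to 88.2 CPM (median 69.8) and knockouts 84.4, 96.1, 89.0, 85.7 and 101 CPM (0.35 ± 0.10, adjusted p = 0.019). The activator Psme4 (the nuclear cap known as PA200) fell in batch 2: 241 to 281 CPM (median 262) in the controls against 224, 230, 215 and 241 CPM, with the highest knockout just under the lowest control (-0.20 ± 0.06, adjusted p = 0.026). That call was lost under 8 of 21 alternative settings, among them no scaling beyond the library total. In batch 1 Psme4 differed by -0.27 ± 0.09 on high-fat diet and -0.24 ± 0.12 on chow, and neither passed. Psme1, Psme2 and Psme3, the subunits of the interferon-induced and the nuclear ring activators, were called in none of the knockout or diet comparisons.

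Without scaling beyond the library total, the median over all genes moved to 0.16 in the high-fat comparison of batch 1 and to 0.07 in that of batch 2, and 25 members rose and 1 fell in the former (all genes: 9.61% higher and 2.91% lower) and 26 and 1 in the latter (10.6% and 4.68%), with the median over members at 0.30 and 0.28. On chow 4 then rose and 1 fell (2.50% and 1.61%), with medians of 0.27 over members and 0.07 over all genes. The batch 2 count ranged from 14 (without Bmal1KO animal 7) to 24 when 1 library at a time was left out. The share of all genes under these omissions is not given here, so the range is not read as a result about the members. Of the 22 calls in batch 2, 3 (Psmc3, Psmd10 and Psmd8) held under every alternative setting tried. Psma6, Psmb1, Psmb3, Psmb6, Psmb7, Psmc1, Psmc4, Psmc6, Psmd2, Psmd3 and Psmd4 lost theirs only under the block on animal number. There the groups share only the numbers 8 and 9 by title, and numbers were not used as pairs elsewhere. The remaining calls were lost under more of the 21 alternatives, single libraries left out among them. Psma2 was lost under 11, Psma5 and Psmd12 under 10, Psme4 under 8 and Psmc2 under 7. Psma7 and Psmd14 were lost under 5 and Psmd13 under 2. Muscle fibre markers summed to 122294 ± 1479 CPM in these knockouts and 127887 ± 4330.5 CPM in the controls, and of the 10 markers 1 rose and 1 fell. Macrophage markers summed to 54.7 to 71.2 CPM against 69.7 to 111 CPM, with 1 of 7 lower. Of the B cell markers only Ighm reached testable levels, and it was higher in Bmal1KO muscle (log2 1.94 in batch 2). The part of these markers in the results was not tested.

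**Figure D3:**
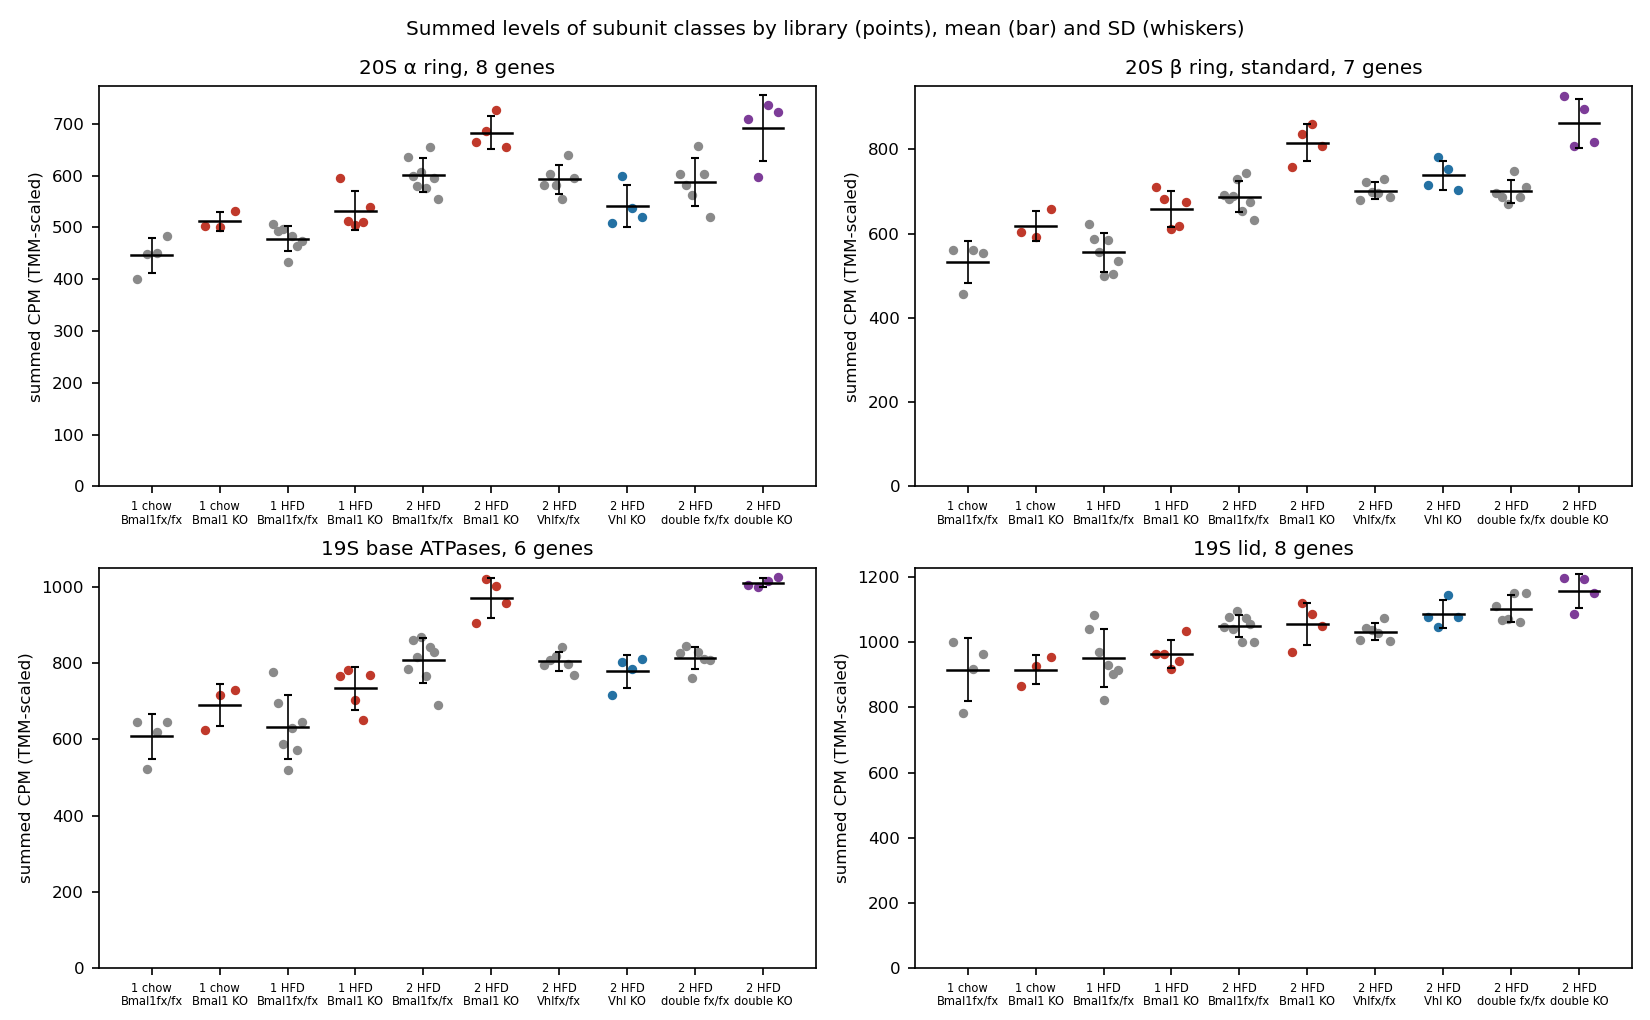
Summed CPM of the α ring (8 genes), standard β ring (7 genes), base ATPases (6 genes) and lid (8 genes) in every library (points), with the mean and SD of each group. In batch 2 the ATPase sum averages 808 in Bmal1fx/fx controls and 971 in Bmal1KO, 805 and 779 in Vhlfx/fx and VhlKO, and 814 and 1012 in the doubly floxed controls and the double knockout.

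Loss of Vhl on high-fat diet moved members in both directions. Their summed level was 4147 ± 125 CPM against 4143 ± 106 CPM (SD, n = 4 and 6), or 4536 against 3563 CPM on library totals without TMM. Of 43 tested, 6 rose (Psmb3, Psmb8, Psmb9, Psmd2, Psmd4 and Psmd13) and 8 fell (Psma1, Psma3, Psma4, Psma6, Psmb7, Psmd1, Psmd12 and Psme4), against a background of 17.7% of all genes higher and 19.5% lower. The share called, 32.6%, lies near the background of 37.2%. The median over the members was -0.01. Without scaling beyond the library total the median of all genes rose to 0.35 and that of the members to 0.33, 28 members rose and none fell (all genes: 44.4% higher and 5.22% lower), so the split between higher and lower members depends on the scaling.

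Psmb3 rose with the smallest p of all members. VhlKO muscle held 148, 112, 144 and 126 CPM and its controls 68.8 to 79.4 CPM (median 73.4), a log2 fold change of 0.84 ± 0.08 (1.79-fold; adjusted p = 1.9e-12). Psmd4 held 299, 237, 326 and 261 CPM against 203 to 221 CPM (median 212), without overlap, a log2 fold change of 0.41 ± 0.07 (adjusted p = 1.6e-05). Psmd13 read 91.4, 83.8, 101 and 105 CPM against 74.2 to 87.4 CPM (0.25 ± 0.08, adjusted p = 0.0066), with animal 2 inside the control range. The calls of Psmb3, Psmd4 and Psmd13 were the 3 of 14 that held under every alternative setting tried.

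Among the members that fell, Psmd1, a scaffold of the base, held 185, 186, 158 and 187 CPM in VhlKO and 222 to 279 CPM (median 237) in the controls, without overlap, a log2 fold change of -0.44 ± 0.08 (adjusted p = 2.2e-05). Its last exonic bases share 301 bases with the gene model Gm21972 on the same strand, so reads could be split between them. Psme4 held 196, 207, 207 and 162 CPM against 215 to 263 CPM (median 251), also without overlap (-0.35 ± 0.07, adjusted p = 3.5e-05). Without TMM scaling, which moves all genes up by a median of 0.35, its log2 fold change was 4.9e-05. Psma4, of the α ring, read 48.5, 74.8, 54.2 and 57.6 CPM against 67.5 to 100 CPM (median 78.2), with animal 2 inside the control range (-0.46 ± 0.14, adjusted p = 0.0094). Psma1, Psma3 and Psma6 fell by 0.25, 0.31 and 0.18, and Psmb7 and Psmd12 by 0.24 and 0.18; without TMM scaling these 5 stood at 0.03 to 0.17, under the all-gene median of 0.35. None of the 6 ATPases was called.

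VhlKO muscle also differed in its tissue markers. All 4 endothelial markers were called higher (sums of 187 to 251 CPM against 97.4 to 113), 7 of 10 muscle fibre markers were lower (sums of 81212 to 92817 CPM against 113011 to 139484), and 2 of 7 macrophage markers were higher (92.2 to 149 CPM against 64.9 to 142). The double knockout showed the same order, with endothelial sums of 159 to 215 CPM against 98.2 to 108, and 8 of 10 fibre markers lower. Their part in the proteasome results was not tested.

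Of the inducible catalytic subunits, Psmb8 and Psmb9 rose in VhlKO, and 1 library was far above the rest. Psmb8 read 6.96, 38.5, 7.09 and 5.44 CPM in the knockouts and 4.03 to 9.09 CPM (median 5.14) in the controls, and Psmb9 5.37, 24.4, 8.04 and 5.44 CPM against 2.61 to 4.02 CPM (median 3.55). Animal 2 stood far above the other VhlKO animals in both, while for Psmb9 all 4 lay above the controls. Both were called (1.34 ± 0.45, adjusted p = 0.020, and 1.67 ± 0.44, adjusted p = 0.0034). Without animal 2 the log2 fold changes were 0.15 and 0.87, and neither passed. Psmb10, the partner of both in the immunoproteasome, read 3.78, 19.6, 5.67 and 8.78 CPM against 6.99 to 9.89 CPM, highest again in animal 2 (0.14 ± 0.28, not called).

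The other genes of antigen presentation and the interferon response, a list of 15 that includes major histocompatibility genes, were read beside them. In VhlKO 14 of 15 rose (median 1.28; all genes: 2320 of 13093 higher and 2556 lower). Without animal 2, 8 of 15 rose (median 0.73), where Psmb8 stood at 0.15 and Psmb9 at 0.87, neither called. The share of all genes without animal 2 is not given here. Their summed level was 1171 CPM in animal 2, 603 to 676 CPM in the other 3 VhlKO animals and 313 to 522 CPM in the controls. In the double knockout 3 of 15 rose, a share near that of all genes (2272 of 13093 higher). In the Bmal1KO comparisons none was called. The chow libraries rich in T cell transcripts also led in this list (631 CPM in control 2 and 666 CPM in Bmal1KO 1, against 256 to 334 CPM in the other 5) and in Psmb9 (7.78 and 10.3 CPM, against 1.50 to 3.94 CPM). In Bmal1KO muscle none of Psmb8, Psmb9 and Psmb10 was called, with log2 fold changes of -0.16 ± 0.45, 0.05 ± 0.46 and -0.08 in batch 2. The widths of these errors leave changes of up to 0.95 on the log2 scale for Psmb9 within the 95% interval.

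**Figure D4:**
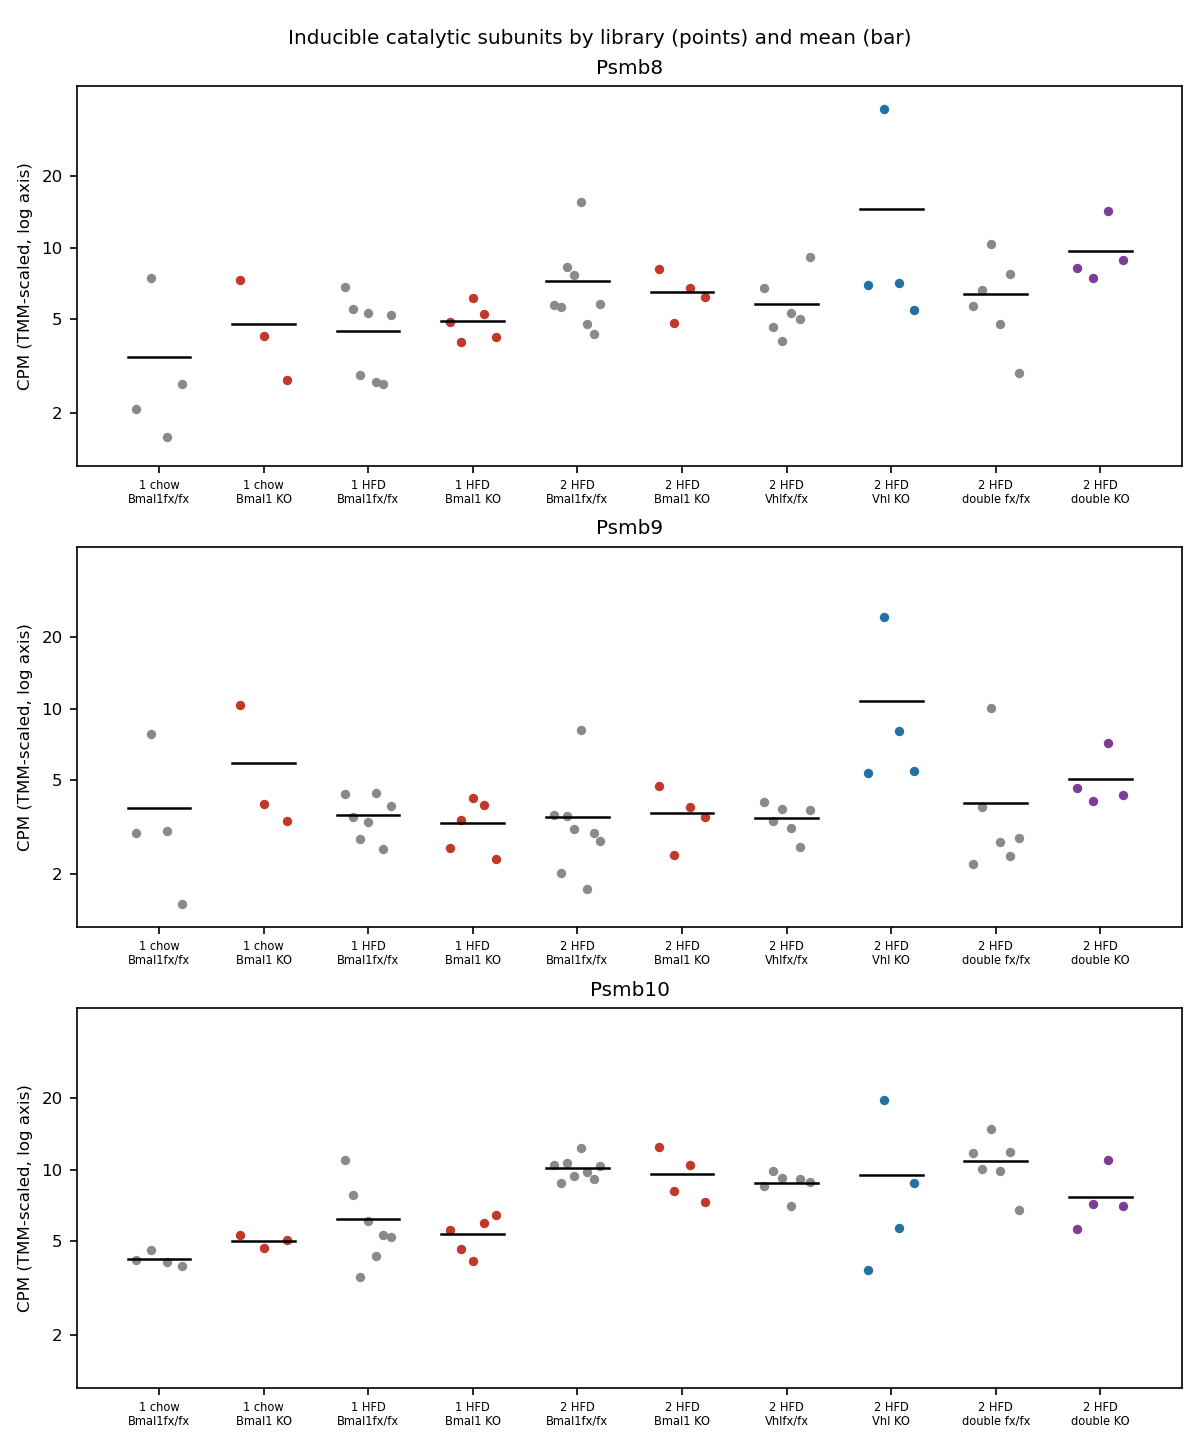
CPM of Psmb8, Psmb9 and Psmb10 (3 panels, log axis) in every library of the 10 groups, with the group mean as a bar. VhlKO animal 2 is the highest point in each panel (38.5, 24.4 and 19.6 CPM).

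With both genes lost, most subunits of the 20S core and most ATPases rose, and Psme4 and Psmd8 fell. In the double knockout 19 of 43 members rose and 2 fell (background: 17.4% of all genes higher and 18.1% lower; 48.8% of the members and 35.4% of all genes were called), with a median of 0.21. Without scaling beyond the library total, 36 rose and none fell (all genes: 47.6% higher and 5.94% lower), with the median of the members at 0.56 and that of all genes at 0.37. The summed level was 4827 ± 167 CPM against 4242 ± 104 CPM in the doubly floxed controls (SD, n = 4 and 6). The 2 comparisons have separate controls: 14 members rose in both, that is 14 of 20 in Bmal1KO of batch 2 and 14 of 19 in the double knockout. Over all genes 434 rose in both, 47.7% of the 909 higher in Bmal1KO and 19.1% of the 2272 higher in the double knockout.

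By place, 4 of 7 α subunits rose (Psma2, Psma3, Psma5 and Psma7), 5 of 7 standard β subunits (Psmb1, Psmb3, Psmb4, Psmb6 and Psmb7), 4 of 6 ATPases (Psmc3, Psmc4, Psmc5 and Psmc6), Psmd4 in the base, Psmd6, Psmd7, Psmd12 and Psmd14 in the lid, and the chaperone Psmd10. Psmb3 held 152, 131, 134 and 125 CPM against 74.9 to 101 CPM (median 79.3), a log2 fold change of 0.70 ± 0.08 (adjusted p = 1.9e-10). Psmc3 held 369, 354, 362 and 350 CPM against 231 to 256 CPM (median 248), a log2 fold change of 0.55 ± 0.07 (adjusted p = 2.6e-09). Psmd4 held 267, 298, 290 and 292 CPM against 199 to 230 CPM (median 215; 0.41 ± 0.07, adjusted p = 1.7e-05). In all 3 the groups were apart. Psmd14 held 65.8 to 81.9 CPM (median 71.3) against 48.1 to 64.8 CPM (median 52.8), likewise apart (0.40 ± 0.08, adjusted p = 5.5e-05), and Psmc4 had a lowest knockout of 43.0 CPM and a median of 48.3 CPM against 28.3 to 42.4 CPM (0.37 ± 0.08, adjusted p = 0.00028).

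Of the standard catalytic subunits, Psmb6 rose by 0.22 ± 0.06 and Psmb7 by 0.31 ± 0.08, while Psmb5 differed by 0.02 (95% interval -0.17 to 0.20). Psmd8 read 306, 227, 315 and 247 CPM against 300 to 355 CPM (median 316), with animals 1 and 3 inside the control range. Its log2 fold change was -0.25 ± 0.08 (adjusted p = 0.0085), not called without animal 2; without TMM scaling, where the all-gene median was 0.37, it stood at 0.11. Psme4 held 196, 229, 223 and 227 CPM against 254 to 284 CPM (median 264), without overlap, a log2 fold change of -0.29 ± 0.07 (adjusted p = 0.00060), or 0.07 under that same setting. Psmb8, Psmb9 and Psmb10 differed by 0.60 ± 0.45, 0.28 ± 0.45 and -0.49 ± 0.28, and none passed.

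The difference between the VhlKO and the Bmal1KO effect was tested directly in batch 2. It was called for 14 of 43 members (background: 25.3% of all genes; 12.2% higher and 13.1% lower). As a signed difference, VhlKO minus Bmal1KO, it was positive for Psmd8 (0.75 ± 0.10, adjusted p = 2.0e-07) and Psmb3 (0.51 ± 0.11, adjusted p = 0.00026). Psmd8 fell in Bmal1KO and was not called in VhlKO, whereas Psmb3 rose in both. The difference was negative for 12 members of the α ring (Psma1, Psma3, Psma4 and Psma6), the β ring (Psmb1 and Psmb7), the ATPases (Psmc3, Psmc4 and Psmc6), the base (Psmd1) and the lid (Psmd12 and Psmd14). It ran from -0.24 (Psmb1) to -0.57 ± 0.11 (Psmd1, adjusted p = 9.9e-05). Psmd1 fell in VhlKO and was not called in Bmal1KO. Over the 31 standard core and cap subunits the median difference was -0.23, and it was positive in 3 of them. The difference in Psmb1 turned from -0.24 to 0.03 without TMM scaling, under which the all-gene median of the difference moved to 0.28, and 5 members were then called, all higher (all genes: 24.9% higher and 4.51% lower). Psmd8 and Psmb3 were the 2 of 14 called under every alternative.

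The double knockout effect also differed from that of VhlKO. It was higher for 12 members and lower for 1 (background: 4.51% and 4.06%, 8.56% in all). Psmc3 led with 0.65 ± 0.09 (adjusted p = 3.0e-06), followed by Psmd1 with 0.58 ± 0.11 (adjusted p = 0.00051), and Psmd8 was the member lower, at -0.41 ± 0.11. Of these 13 calls, 8 held under every alternative setting tried, Psmc3 and Psmd1 among them. Psma2, Psma4, Psmc5 and Psma6 were lost under 21, 17, 13 and 11 of 29 alternatives. Psmd8 was lost only without scaling beyond the library total (edgeR adjusted p = 0.056). Against Bmal1KO the double knockout differed in 2 members (background: 7.69% higher and 9.04% lower, 16.7% in all), Psmb3 (0.37 ± 0.11, adjusted p = 0.011) and Psmd8 (0.34 ± 0.10, adjusted p = 0.017), both higher. These contrasts share libraries with one another and are not independent.

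**Figure D5:**
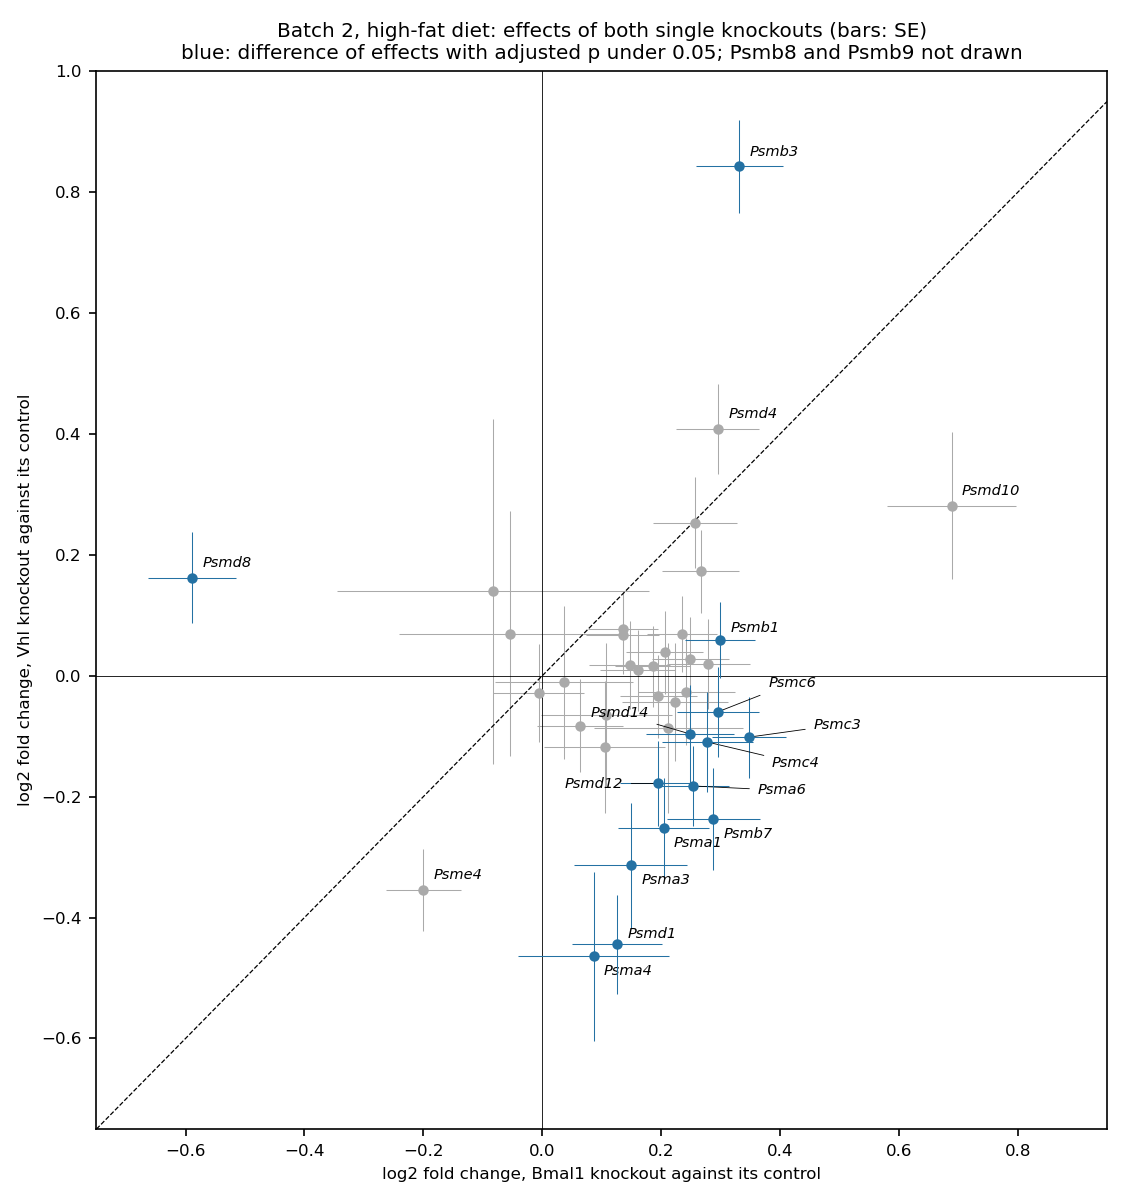
Log2 fold change in VhlKO (y axis) against that in Bmal1KO (x axis), both in batch 2 on high-fat diet, with standard errors. Each point is a member, blue where the difference between the effects was called, the dashed line marks equal effects, and Psmb8 and Psmb9 are not drawn. Most points lie to the right of 0 and below the line, and Psmd8 and Psmb3 lie above it.

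Over the 5 knockout comparisons, Psmb3 rose in all 5, and Psmd4, Psmd10 and Psmd13 rose in 3 each. Psmd8 fell in 4 and Psme4 in 3, the exceptions being VhlKO for Psmd8 (0.16 ± 0.08) and both comparisons of batch 1 for Psme4. Called in none of the 5 were 11 members: the β subunits Psmb2, Psmb5 and Psmb10, the chaperones Psmd5 and Psmd9, the lid subunit Psmd11, the activators Psme1, Psme2 and Psme3, and Psmc3ip and Psme2b, the latter tested only in batch 2. Calls of different comparisons within a batch rest on 1 shared estimate of the spread. The counts across comparisons are given without the same count over all genes, so they are not read as a trait of the members. The background of each single comparison is given above.

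The share of proteasome genes called for diet was near that of all genes. High-fat diet against chow called 1 of 42 members in the Bmal1fx/fx controls (background: 1.51% of all genes higher and 0.854% lower, 2.37% in all) and 0 of 42 in the Bmal1KO (background: 1.72% and 1.57%, 3.28% in all; 5 members at an unadjusted p under 0.05, and none by DESeq2). The member was Psmd11, a lid subunit that contacts the 20S core: the chow controls held 109, 90.7, 105 and 120 CPM and the high-fat controls 125 to 173 CPM (median 139), without overlap, a log2 fold change of 0.44 ± 0.10 (adjusted p = 0.0092). The call was lost without chow control 2. In Bmal1KO Psmd11 read 115, 124 and 132 CPM on chow and 138, 151, 140, 170 and 137 CPM on high-fat diet, also without overlap, but its difference of 0.25 ± 0.11 did not pass; nor did that of Psmb5 (0.30 ± 0.14). No member's diet effect was called different between the genotypes by edgeR or DESeq2, and 0 were at an unadjusted p under 0.05; Psmd13 (0.30 ± 0.16) and Psmd8 (0.32 ± 0.19) had the smallest p.

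The wider ubiquitin pathway was read from lists of 34 genes of ubiquitin, its activating and conjugating enzymes and muscle ligases, 21 of proteasome assembly and accessory factors, and 11 of the transcriptional control of proteasome genes. In Bmal1KO of batch 2 (background: 6.94% and 6.96%), 3 of 34 rose and 4 fell, 4 of 21 rose and 1 fell, and 2 of 11 rose and 1 fell. Ubb, a polyubiquitin gene, rose by 0.42 and Ube3c, a ligase that acts at the proteasome, by 0.52. The atrophy ligases Fbxo32 and Trim63 fell by 0.85 and 0.51, and Fbxo40, another muscle ligase, fell by 0.31. Psmg4, an assembly chaperone of the 20S core, rose by 0.52, and Vcp, the segregase that feeds the proteasome, by 0.31. Bach1, a repressor at antioxidant response elements, fell by 0.47. In batch 1 on high-fat diet (background: 3.82% and 5.18%) the counts were 2 and 2 of 34, 3 and 2 of 21, and 1 and 2 of 11, with Ubb at 0.43, Psmg4 at 0.63 and Bach1 at -0.51. On chow 1 of 34 rose and nothing else was called.

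In VhlKO 5 of 34 rose and 11 fell, 1 of 21 rose and 6 fell, and 2 of 11 rose, where 17.7% of all genes rose and 19.5% fell. Fbxo40 fell by 0.97, the muscle ligase adaptor Asb2 by 0.96 and the proteasome inhibitor Psmf1 by 0.75, while Nfe2l1, the factor that restores proteasome transcription, rose by 0.32. In the double knockout (background: 17.4% and 18.1%) 5 of 34 rose and 10 fell, 4 of 21 rose and 3 fell, and 3 of 11 rose and 1 fell. Ubb rose by 0.41 and Psmg4 by 0.63, and Fbxo40 fell by 0.88 and Fbxo31 by 0.90. Of the 10 muscle fibre markers, 7 and 8 were lower in these knockouts, as given above. With high-fat diet, Ddi2, the protease that activates the Nfe2l1 product, fell by 0.56 in the controls and 0.78 in Bmal1KO. Fbxo32 fell by 0.65 and 1.23. Nfe2l1 was the 1 gene of its list that rose in Bmal1KO, at 265 CPM on high-fat diet against 177 CPM on chow. It was not called in the controls (251 against 210 CPM). In the controls 1 of 34 rose and 2 fell, 0 of 21 were called, and 1 of 11 fell (all genes: 193 of 12762 higher and 109 lower). In Bmal1KO 3 of 34 fell, 1 of 21 fell, and 1 of 11 rose and 2 fell (all genes: 219 higher and 200 lower).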

How the data were processed

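RNA from whole gastrocnemius was made into QuantSeq 3′ FWD libraries from 300 ng, per the labels' protocols. The deposited counts per gene symbol were made by the authors with FastQC 0.11.4, STAR 2.6.0 and HTSeq (version not given in the sources used here), on mm10 or GRCm38.p4, per the submitters' processing notes. The deposited normalized tables (edgeR 3.26.8) were not used. All columns matched a sample, and no library duplicated another.

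Counts were tested in R 4.3.3 with edgeR 4.0.16 (filterByExpr, TMM, robust quasi-likelihood F-test, Benjamini-Hochberg adjusted p under 0.05 over all genes: 12762 in batch 1, 13093 in batch 2, 13926 for the contrast of batches). All groups of a batch share 1 fit, each a mean of its own. The SE is the log2 fold change over the root of F, and the 95% interval is 1.96 SE. "Called", "rose" and "fell" mean adjusted p under 0.05, and every adjusted p in the text is from this test. CPM use TMM-scaled library sizes per batch. Alternatives were DESeq2 1.42.0, RLE scaling, library totals alone, other filters, an adjusted p under 0.01, a fit of the contrast's groups alone, no robust option, a replicate block and each library left out. The scripts were tested on simulated data.

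The members and lists were chosen with earlier results of these data known. Values are given for Psmb5 to Psmb10, Psme1 to Psme4, the members of highest and lowest level, the 3 higher and 3 lower members with the smallest p per comparison (the 2 smallest where none passed, and in contrasts of effects) and up to 4 genes a pathway list; all other named genes were chosen after their values were seen. Gene positions are from GENCODE M21 and promoters from RefSeq (GRCm38.p6). Same-numbered animals did not deviate together (correlations of -0.29 to 0.17), so numbers were not used as pairs.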

Additional observations from a re-analysis of the deposited data

Results flagged for a closer look

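Libraries far from the others of their group were looked for in groups of 4 to 10 animals. The screen took the 23 members that the naming rule picks and the class sums, and 24 of 281 combinations stood out. Chance gives about 1 in 20 for independent items. These share libraries, and the sums hold the members, so no excess over chance is read from the count.

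The inducible β subunits and their sum gave 10 of them. VhlKO animal 2 held 38.5 CPM of Psmb8 and 24.4 CPM of Psmb9, against at most 7.09 and 8.04 CPM in the other VhlKO animals, and its inducible β sum was 82.4 CPM against at most 20.8. Animal 12 of the Bmal1fx/fx controls in batch 2 held 15.5 CPM of Psmb8, 8.13 CPM of Psmb9 and an inducible sum of 35.9 CPM. Psmb9 was 7.17 CPM in double knockout 3, whose inducible sum was 32.4 CPM, and 10.04 CPM in doubly floxed control 3. The inducible sum of chow control 2 was 19.8 CPM. T and NK cell markers, whose part was not tested, summed to 6.77 CPM in VhlKO 2, 29.8 CPM in chow control 2, 2.84 CPM in Bmal1fx/fx control 12, 2.80 CPM in doubly floxed control 3 and 0.077 CPM in double knockout 3.

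Chow control 2 was low in standard subunits, with a standard β sum of 457 CPM (others 554 to 560), 20.5 CPM of Psmb5 and 137 CPM of Psmc3. Bmal1KO animal 6 of batch 2 lay below its group in Psmb5 (33.3 CPM), Psmd11 (106 CPM) and Psmd4 (219 CPM), and animal 8 above it in Psmd8 (199.7 CPM). Single values also stood out for Psmb3 in Bmal1fx/fx control 15 (66.1 CPM, low), Psmd13 in Bmal1fx/fx control 9 (89.8 CPM, high), Psmb1 in Vhlfx/fx control 2 (115 CPM, high), Psmb6 in doubly floxed control 5 (104 CPM, low) and Psmd1 in VhlKO 3 (158 CPM, low). Psmb11 was 0.083 CPM in Bmal1fx/fx control 8 and 0.22 CPM in double knockout 2, and 0 in the rest of both groups.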

How the results depend on the processing

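RLE scaling and DESeq2 left the counts of members called within 1.5 times of those reported, except that DESeq2 called 4 on chow. With genes kept only at a mean log2 CPM over 1, 7 were called for Bmal1KO on high-fat diet in batch 1 and 4 on chow, and 7 in the former without a filter on low counts. An adjusted p under 0.01 left 7 for VhlKO and 0 for the double knockout against Bmal1KO effect, and a fit of its own groups alone left 9 for VhlKO. Without scaling beyond the library total the counts were 26 (Bmal1KO, high-fat diet, batch 1), 5 (chow), 0 (diet in controls), 28 (VhlKO), 36 (double knockout), 5 (VhlKO against Bmal1KO effect), 13 (double knockout against Bmal1KO effect) and 8 (double knockout against VhlKO effect), and the summed levels moved to 4145.8 (chow Bmal1KO), 3332.6 (high-fat controls of batch 1), 6087 (double knockout), 4536.2 (VhlKO) and 3563.3 CPM (Vhlfx/fx). Reversals arose under that setting alone: in VhlKO Psma1 at 0.090, Psma3 at 0.033, Psma6 at 0.17, Psmb7 at 0.12, Psmd12 at 0.17 and Psme4 at 4.9e-05, in the double knockout Psmd8 at 0.11 and Psme4 at 0.066, and in the VhlKO against Bmal1KO effect Psmb1 at 0.027. The causes were not tested. Shares of all genes without scaling beyond the library total are given above for the knockout comparisons and for the VhlKO against Bmal1KO effect. The other counts in this section stand without the share of all genes under their setting. They are not read as results about the members.

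Leaving out 1 library at a time gave 3 to 8 (Bmal1KO, high-fat diet, batch 1; 8 without control 1), 2 to 4 (chow; 4 without control 4), 0 to 1 (diet in controls; 0 without chow control 2), 14 to 24 (Bmal1KO, batch 2; 14 without Bmal1KO 7), 9 to 14 (VhlKO; 9 without VhlKO 3), 20 to 22 (double knockout), 12 to 16 (VhlKO against Bmal1KO effect), 9 to 17 (double knockout against VhlKO effect) and 1 to 3 (double knockout against Bmal1KO effect; 1 without double knockout 1 or 3). Without chow control 2 and chow Bmal1KO 1 together, a setting chosen after seeing the data, 1 was called for Bmal1KO on chow and 2 for diet in controls. Psmd13 in batch 1 lost its call under 6 of 21 alternatives, and Psma6, Psmb7 and Psmd12 in VhlKO under 9, 6 and 13 of 19, beside their reversals.

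With the replicate block the counts were 3 (Bmal1KO, high-fat diet, batch 1), 2 (chow), 1 and 0 (diet), 3 (Bmal1KO, batch 2, where the groups share only the numbers 8 and 9), 10 (VhlKO), 20 (double knockout), 5, 0 and 9 (the contrasts in the order VhlKO against Bmal1KO, double knockout against Bmal1KO and against VhlKO). The animals share only a number, taken here from the titles, which differ from the column names for some Bmal1KO of batch 2. In no comparison did every animal correlate best with its own number.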
